A study of Mus musculus with 6 samples.

Results

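Among 23418 endothelial droplets from the brain microvessels of 6 mice, 62 also carried platelet transcripts. A droplet is the set of transcripts that share 1 cell barcode, and a transcript copy is counted as 1 unique molecular identifier (UMI). Of 49059 barcodes in the 6 libraries, 44112 had 500 to 4500 detected genes and under 10% mitochondrial UMIs. An endothelial droplet held at least 6 UMIs of *Cldn5*, *Flt1*, *Ly6c1* and *Itm2a* together and 0 UMIs of the microglial genes *Cx3cr1*, *Aif1* and *Csf1r*. It was called platelet-carrying when *Ppbp*, *Itga2b*, *Gp9* and *Clec1b* together gave at least 3 UMIs, here named its platelet sum. The 22545 endothelial droplets with a platelet sum of 0 served as the reference, and 811 droplets with a sum of 1 or 2 entered neither class. The members were thus chosen by measured values, so the levels of these 11 genes in them are descriptions and no finding.

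The droplets came from 3 WT mice of the C57BL/6J strain and 3 AppArcSwe mice, a transgenic model with the Arctic and Swedish mutations of the amyloid precursor protein, which deposits amyloid in brain tissue and in vessel walls. The promoter of the transgene is not given in the sources used here. All mice were untreated males of 12 months, and each gave 1 library from 1 cerebral hemisphere. Vascular fragments were pulled down with beads against CD31, a protein that endothelial cells and platelets both carry on their surface, and digested to single cells. The methods for these cells do not mention flushing of the blood vessels. Libraries held 26436229 to 59161203 UMIs.

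Platelets are cell fragments without a nucleus that megakaryocytes shed into the blood. They keep a limited set of megakaryocyte transcripts, which encode granule cargo, adhesion receptors and their own cytoskeleton. At a vessel wall they bind collagen and von Willebrand factor, release their granules and aggregate through an integrin pair. Endothelial cells of the brain are not known to make most of these transcripts. How platelet and endothelial RNA came under 1 barcode was not tested, and no doublet caller was run.

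Of the 6 markers that name these droplets, 4 are rule genes, so only *Pf4* and *Treml1* could check the label. *Ppbp* and *Pf4* encode chemokines of the alpha granules, *Itga2b* the alpha subunit of the fibrinogen receptor, *Gp9* a subunit of the von Willebrand factor receptor, *Clec1b* the podoplanin receptor CLEC-2, and *Treml1* a membrane protein of alpha granules. Of the 62 droplets, 45 (72.6%) had a *Pf4* UMI and 10 (16.1%) a *Treml1* UMI, against 1.57% and 0.0887% of the reference. Of the 6 markers, 6 were found in 2 droplets, 5 in 10, 4 in 14, 3 in 21, 2 in 12 and only 1 in 3, a tally that the rule largely fixes. On the GRCm38 assembly *Ppbp* (chromosome 5, 90768518 to 90770063) and *Pf4* (chromosome 5, 90772435 to 90773383) lie close together on the plus strand. The other rule genes lie on chromosome 6 (*Gp9*, 87778072 to 87779768, and *Clec1b*, 129397297 to 129409335) and chromosome 11 (*Itga2b*, 102453297 to 102470122, minus strand).

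The 250 bases before the RefSeq transcription starts of the 6 markers were searched for short motifs of the factor families known to drive megakaryocyte genes. The ETS motif GGAAGT, which reads ACTTCC on the other strand, was in the window of 4 of the 6 markers and in 19.7% of 32851 RefSeq promoter windows of the same length. The GATA motif AGATAA, which reads TTATCT on the other strand, was in none of the 6 and in 9.99% of all windows. Over the platelet lists described below, 15 of 53 windows (28.3%) held the ETS motif and 7 (13.2%) the GATA motif. The 4 windows with an ETS match are shown 5′ to 3′ on the strand of the gene, from RefSeq on GRCm38.p6, with the match in capitals. They lie at chr5:90772185-90772434 (*Pf4*, plus), chr5:90768268-90768517 (*Ppbp*, plus), chr11:102469884-102470133 (*Itga2b*, minus) and chr6:87777820-87778069 (*Gp9*, plus). The gene positions above are from GENCODE vM21, in which *Itga2b* starts farther upstream than in RefSeq, so that nearly all of its window, the match included, lies inside the gene by that annotation. A match describes letters only, not a bound site.
Pf4: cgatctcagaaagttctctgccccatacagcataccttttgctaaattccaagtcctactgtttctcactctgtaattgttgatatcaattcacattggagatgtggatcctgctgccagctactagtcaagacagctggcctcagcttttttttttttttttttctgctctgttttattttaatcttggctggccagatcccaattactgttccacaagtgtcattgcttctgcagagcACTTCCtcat
Ppbp: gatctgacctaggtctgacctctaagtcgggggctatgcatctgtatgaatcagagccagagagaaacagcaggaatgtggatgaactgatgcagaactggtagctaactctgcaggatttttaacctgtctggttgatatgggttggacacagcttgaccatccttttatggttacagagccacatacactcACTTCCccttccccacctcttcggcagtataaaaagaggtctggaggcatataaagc
Itga2b: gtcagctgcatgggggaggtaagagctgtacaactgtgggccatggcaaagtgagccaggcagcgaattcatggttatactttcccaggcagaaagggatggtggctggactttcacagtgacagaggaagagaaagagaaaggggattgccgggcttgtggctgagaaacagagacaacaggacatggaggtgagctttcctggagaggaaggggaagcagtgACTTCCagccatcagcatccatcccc
Gp9: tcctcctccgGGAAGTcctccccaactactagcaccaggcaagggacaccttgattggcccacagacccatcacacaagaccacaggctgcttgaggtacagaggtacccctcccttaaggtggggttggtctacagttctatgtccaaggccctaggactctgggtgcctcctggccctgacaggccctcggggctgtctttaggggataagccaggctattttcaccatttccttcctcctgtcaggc

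Platelet-carrying droplets were found in every mouse. They numbered 12 of 3924 endothelial droplets (0.306%) in WT mouse 1, 18 of 3636 (0.495%) in WT mouse 2 and 6 of 3719 (0.161%) in WT mouse 3. In AppArcSwe mice they numbered 12 of 4810 (0.249%), 6 of 1639 (0.366%) and 8 of 5690 (0.141%). WT mouse 2 was the highest and AppArcSwe mouse 3 the lowest, and the genotypes overlapped. The mean was 0.321% ± 0.167 (SD, n = 3) in WT and 0.252% ± 0.113 (SD, n = 3) in AppArcSwe mice, a difference of -0.0687 percentage points that was smaller than the spread between mice (exact two-sided permutation test, p = 0.6; 3 mice against 3 allow no p under 0.1). Without WT mouse 2 the difference turned to 0.0185 percentage points. When every droplet was thinned to 2000 UMIs, which left out 69 to 1185 shallower droplets per mouse, 0.0383% ± 0.0333 of WT and 0.0368% ± 0.0330 of AppArcSwe droplets (n = 3 each) kept a sum of 3.

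**Figure D1:**
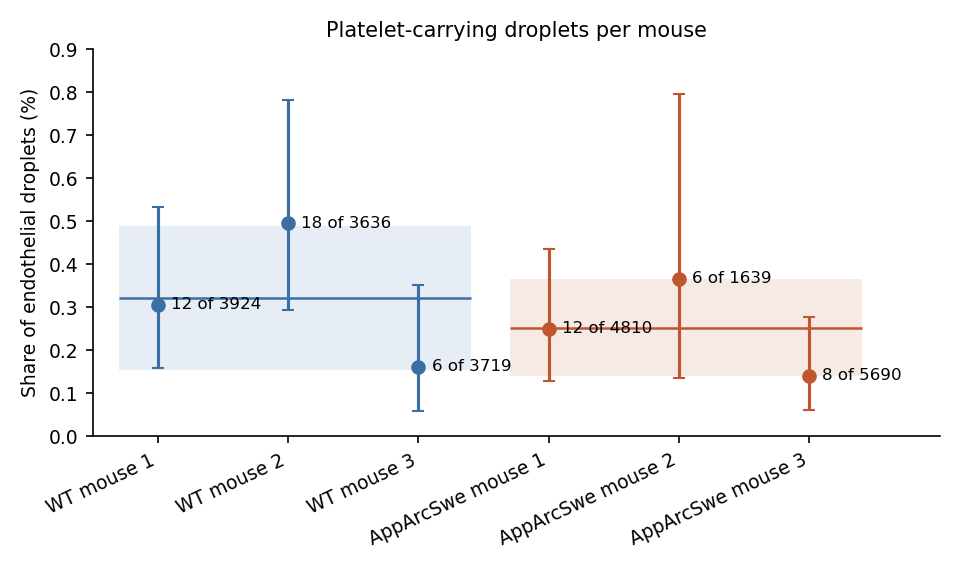
Share of endothelial droplets that carried platelet transcripts in each mouse (points, with exact Clopper-Pearson 95% intervals that cover counting error only); lines and bands give the mean and SD of each genotype. The shares ran from 0.141% to 0.495% and the intervals of both genotypes overlapped.

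Most of the droplets lay close to the threshold. The platelet sum was 3 in 33 droplets, 4 in 13 and 5 or more in 16, with a highest sum of 19, and just outside the rule 67 droplets had a sum of 2. All 4 rule genes were found together in 7 droplets, 3 in 23, 2 in 24 and a single one in 8. Of these 8, 3 held only *Itga2b*, 3 only *Clec1b*, 1 only *Ppbp* and 1 only *Gp9*, and 5 of the 8 had a *Pf4* UMI. *Ppbp* was found in 44 of the 62 droplets, *Itga2b* in 41, *Clec1b* in 39 and *Gp9* in 29.

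*Pf4*, which the rule did not use, followed the platelet sum. It was found in 355 of 22545 droplets at a sum of 0, 100 of 744 at 1 (13.4%), 19 of 67 at 2 (28.4%), 20 of 33 at 3 (60.6%), 9 of 13 at 4 (69.2%) and all 16 at 5 or more. The median UMIs per droplet were 3830 at a sum of 0, 5036 at 1, 6744 at 2, 5036 at 3, 7035 at 4 and 6882 at 5 or more. In a subset of 606 reference droplets nearest to the members in total UMIs within each mouse, 1.65% had a *Pf4* UMI. The share with *Pf4* was higher in members than in the reference in every mouse. It was in 7 of 12, 14 of 18 and 3 of 6 members in WT mice and in 10 of 12, 5 of 6 and 6 of 8 in AppArcSwe mice, against 0.974% to 2.82% of the reference. *Nrgn*, whose protein neurogranin binds calmodulin and whose transcript platelets also hold, was found in 2.89% of droplets at a sum of 0, 14.5% at 1, 38.8% at 2, 48.5% at 3 and 75.9% at 4 or more. *Thbs1*, which encodes the granule protein thrombospondin-1, was found in 0.989%, 3.23%, 11.9%, 24.2% and 48.3% of the same classes.

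**Figure D2:**
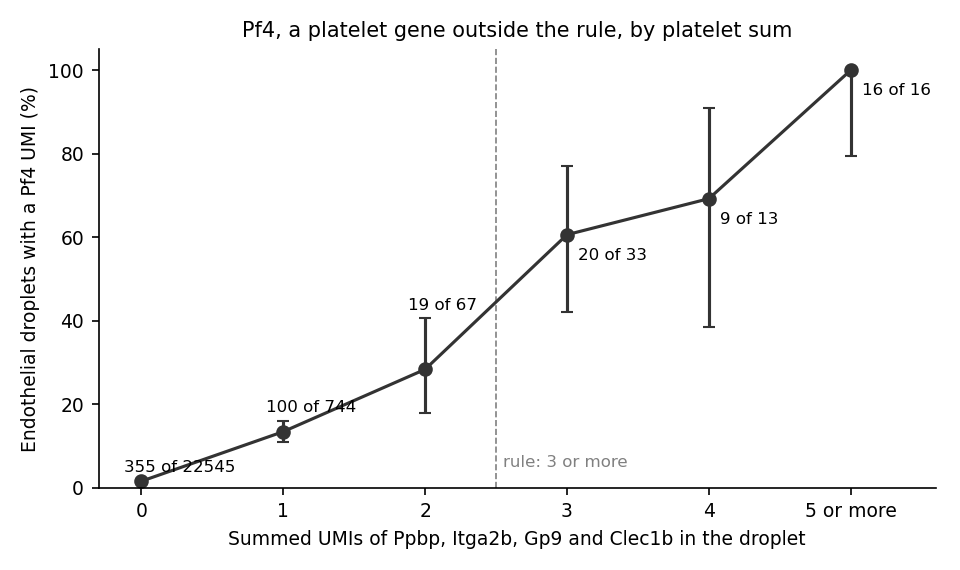
Share of endothelial droplets of all 6 mice with a *Pf4* UMI (y axis, %) by the summed UMIs of the 4 platelet genes of the rule (x axis), with exact Clopper-Pearson 95% intervals that cover counting error only. The share was 1.57% at a sum of 0 and 60.6% at the threshold of 3.

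A single UMI did not carry the same information for each rule gene. Among the 744 endothelial droplets with a platelet sum of 1, *Pf4* was found in 43 of 110 (39.1%) whose UMI was *Ppbp*, in 24 of 94 (25.5%) with *Gp9*, in 14 of 53 (26.4%) with *Clec1b* and in 19 of 487 with *Itga2b*. *Itga2b* made up 65.5% of these single UMIs. It also made up 90.5% of the platelet UMIs of 2370 mural droplets (smooth muscle cells and pericytes) and was found in 1.56% of them. *Gp9* made up 83.7% of the platelet UMIs of 3094 microglial droplets and was found in 9.15% of them, at a median of 3626 UMIs per droplet against 3874 in endothelial droplets. No mural droplet reached a sum of 3, which allows a share of up to 0.156% (upper bound of the exact 95% interval), at a median of 4871 UMIs. Among microglial droplets 6 did so (0.194%), 3 each in WT mice 1 and 2. These 6 reached the sum by *Gp9* and *Clec1b* alone, with 0 UMIs of *Ppbp*, *Itga2b* and *Pf4*.

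The same sum was reached by 128 barcodes of the 6 libraries in all. Of 4947 barcodes that failed the filter, 41 had a sum of 3 or more, and 34 of these had over 4500 genes while 7 had under 500. Of those that passed the filter, 23 had a microglial UMI and 7 had an endothelial sum of 0 or 1, with a highest platelet sum of 18, and some fell under both. The limits on gene number and the bar on microglial genes thus set part of the count of 62.

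The members held more RNA than the reference in every mouse. The median UMIs per platelet-carrying droplet were 5716.5, 5042 and 9579 in WT and 7034.5, 8486.5 and 6501.5 in AppArcSwe mice. Reference droplets had medians of 4267, 4391, 3459, 3946, 5625.5 and 2939 in the same order of mice. A droplet with more UMIs reaches a sum of 3 more easily. The nearest reference droplets matched this depth in 5 mice but had a median of 5487 UMIs in AppArcSwe mouse 1. The median share of mitochondrial UMIs was 1.59% to 2.58% in members and 1.54% to 2.84% in the reference. Of 48775 barcode sequences 283 occurred in more than 1 library, and none of these belonged to a member.

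To describe the platelet programme, UMIs were summed per mouse within members and within reference droplets, expressed as CPM, which is relative to the total of each sum, and tested with edgeR's quasi-likelihood test with the mouse as a block. The member sums rested on 6 to 18 droplets and 45949 to 122621 UMIs per mouse, so 1 UMI equalled 8.16 CPM in the deepest and 21.8 CPM in the shallowest sum, and a gene held by few droplets varied strongly between mice. Over 12149 genes, 111 (0.914%) were called at an adjusted p under 0.05, 57 higher in members (0.469%) and 54 lower (0.444%), and the median log2 fold change of all genes was -0.21. That shift depended on the scaling and was -0.03 with RLE size factors, under which 75 genes were called higher and 22 lower. DESeq2 called 51 higher and 4 lower. Outside the rule genes 53 of 12141 genes were called higher (0.437%), 19 of them in the platelet lists, and 54 lower (0.445%). Because the members were chosen on this contrast by genes of the same programme, platelet genes are given below with levels and fold changes and without p-values, and nothing is read from their counts. A gene nearly absent from the reference could also pass the filter on low counts through the members alone. The test worked on UMI sums, so its p-values do not take into account how a gene's UMIs were spread over the few member droplets.

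Of the granule cargo, the chemokine gene *Pf4* stood at 356, 449 and 77.1 CPM in the members of WT mice. It stood at 420, 261 and 218 CPM in those of AppArcSwe mice, against 2.68 to 5.66 CPM in the reference of all mice. WT mouse 3, with 4 *Pf4* UMIs in 6 droplets, was the lowest, and all members' values were above all reference values (log2 fold change 6.03 ± 0.32, SE). *Nrgn* stood at 308, 416 and 38.5 CPM in WT and at 570, 335 and 65.3 CPM in AppArcSwe mice, against 5.16 to 9.92 CPM (5.19 ± 0.29). Mouse 3 of each genotype was the lowest for *Nrgn*. *Thbs1* varied less, with 57.8 to 130 CPM in members and 1.49 to 6.05 CPM in the reference (4.50 ± 0.39). As a description, 6 of the 10 cargo genes tested outside the rule were called higher and none lower (median log2 fold change 3.20). Over all genes outside the rule 0.437% were called higher. The other called cargo genes were *F5* (coagulation factor V; 1.91), *F13a1* (a transglutaminase subunit that crosslinks fibrin; 3 UMIs in 3 droplets) and *Mmrn1* (multimerin, a carrier of factor V; 7 UMIs in 5 droplets). *Srgn*, the granule proteoglycan, was in 95.2% of members and 87.4% of reference droplets (0.02 ± 0.14), and endothelial cells express it too.

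As a description, 5 of 6 adhesion genes tested outside the rule were called higher, most of them from few UMIs. Over all genes outside the rule 0.437% were called higher. *Selp*, which encodes P-selectin, had 1 UMI in members and did not pass (log2 fold change -0.54 ± 1.42). *Treml1* had 14 UMIs in 10 members and at least 1 UMI in every mouse, with 11.9 to 109 CPM against 0.11 to 0.25 CPM (log2 fold change 7.29 ± 0.62). *Gp5*, the subunit that thrombin cleaves, had 13 UMIs in 9 members and was found in 4 of 6 mice (7.38 ± 0.64). *Itgb3*, the partner of *Itga2b* in the fibrinogen receptor, was in 10 members (2.49 ± 0.61), *Itga2*, a collagen receptor subunit, in 5 (3.38 ± 0.86), and *Gp1bb*, a partner of *Gp9*, was not tested and was in 5 members and 0.0399% of the reference. *Cd9*, a tetraspanin of platelets and endothelium alike, was in 83.9% of members and 49.0% of reference droplets (0.88 ± 0.14). It stood at 135 CPM in WT mouse 3, the 1 mouse in which members were below the reference, and at 261 to 760 CPM in the others.

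Over all genes outside the rule 0.437% were called higher. As a description, 5 of the 20 agonist receptor and signalling genes tested were called higher and none lower (median log2 fold change 1.01). They were *Plek*, the kinase substrate pleckstrin (54 UMIs in 21 members, 2.86 ± 0.35), *Fermt3*, the integrin activator kindlin-3 (2.92 ± 0.43), *P2rx1*, an ATP-gated channel (7 UMIs in 7 members), *Bin2* (2.73 ± 0.62) and *Rab27b*, a regulator of dense granules (8 UMIs in 7 members). *Plek* was at 0 in the members of AppArcSwe mouse 3 and *Fermt3* in those of WT mouse 3. *P2ry12*, the ADP receptor that microglia express too, was in 17.7% of members and 9.44% of reference droplets and did not pass the test (0.41 ± 0.55). Of 10 cytoskeletal genes tested, *Tubb1*, *Myl9* and *Pdlim1* were called higher and none lower, a description beside the same 0.437%. *Tubb1*, the beta tubulin of the platelet rim, had 10 UMIs in 8 members and was in 7 of 22545 reference droplets. *Tpm4*, *Tln1*, *Myh9*, *Flna* and *Vcl* were in 35.5% to 95.2% of members, with log2 fold changes from -0.09 to 0.25 that did not pass.

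Of 8 nuclear regulators of megakaryocytes, 3 were at 0 and 5 were found in members. *Gata1*, *Nfe2* and *Gfi1b* had 0 UMIs in the 458467 UMIs of all members, which allows up to 3 UMIs. In the reference they stood at 0.0379, 0.682 and 0.00947 CPM, whereas 1 UMI in all members equals 2.18 CPM. Their absence thus does not set the members apart from the reference. *Fli1*, which endothelial cells also express, was in 95.2% of members and 76.6% of the reference (log2 fold change -0.04 ± 0.14). *Zfpm1*, a partner of GATA factors, was in 33.9% of members and 18.8% of the reference (0.20 ± 0.33), *Tal1* in 16.1% and 17.1% (-0.72 ± 0.42) and *Runx1* in 6.45% and 3.65% (-0.07 ± 0.82). Of these 5 genes tested, *Mef2c* alone was called, at -0.73 ± 0.17, and it is also an endothelial factor.

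**Figure D3:**
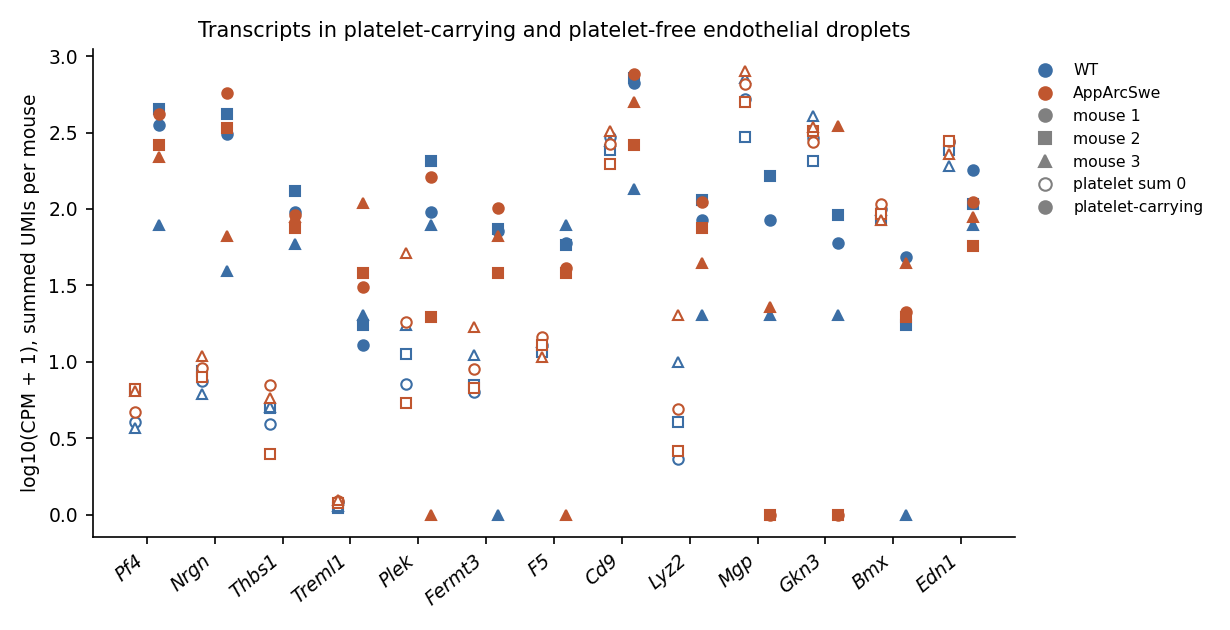
Level of 13 named genes in each mouse, as log10(CPM + 1) of summed UMIs, in reference droplets with a platelet sum of 0 (open symbols) and in platelet-carrying droplets (filled symbols), by genotype (colour) and mouse (shape). The first 4 genes and *Lyz2* were higher in members of all 6 mice, while *Mgp*, *Bmx* and *Edn1* were lower in all 6.

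Outside the platelet lists 4 genes were called higher by the same test and were higher in the members of all 6 mice. The choice of members on platelet RNA also raises any platelet transcript that is on no list. The values of these 4 genes are thus descriptions too, and their p-values support nothing. *Lyz2*, the lysozyme gene of myeloid cells, was in 26 of 62 members and 2.94% of the reference (log2 fold change 4.14 ± 0.42, edgeR adjusted p = 1.1e-19). It stood at 83.0, 114 and 19.3 CPM in WT and at 110, 74.6 and 43.5 CPM in AppArcSwe mice, against 1.30 to 19.4 CPM in the reference. The value of WT mouse 3 rested on 1 UMI and that of AppArcSwe mouse 3 on 2 UMIs. The other markers of monocytes, *Ccr2*, *Ly6c2*, *Plac8*, *Chil3* and *Ms4a6c*, were at 0 in all members. *Ctla2a*, a cysteine protease inhibitor of endothelial and blood cells, was in 60 members and 70.1% of the reference (0.83 ± 0.13, adjusted p = 1.3e-07 by edgeR). *Lsm12* (1.29 ± 0.24, edgeR adjusted p = 1.5e-05) and *Mkrn1* (0.92 ± 0.25, edgeR adjusted p = 0.038) were also higher in 6 of 6 mice. *Lsm12* was called under 17 of 17 alternatives, *Lyz2* and *Ctla2a* under 16 and *Mkrn1* under 8. Of the platelet cytoskeleton list, *Myl9*, a myosin light chain of smooth muscle and platelets, was in 28 members (45.2%) and 5.98% of the reference, and 28 of its 75 member UMIs came from 1 droplet. The 9 genes called higher outside the rule in all 6 mice were these 5, *Treml1*, *Pf4*, *Nrgn* and *Thbs1*.

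*Pf4* and *F13a1* also belong to perivascular macrophages. Their other markers *Mrc1*, *Cd163*, *Ms4a7* and *Cbr2* had 0 UMIs in all members, *Lyve1* had 1, and *Stab1* was in 13 members and 15.9% of the reference (log2 fold change -0.16 ± 0.39). Microglial transcripts, of which 3 genes were barred by the rule, summed to 154 to 740 CPM in members and to 178 to 891 CPM in the reference. Neutrophil genes gave 2 UMIs in all members. None of the 2 neutrophil, 4 B cell, 9 microglial, 2 fibroblast, 3 astrocyte, 3 oligodendrocyte and 3 fenestrated endothelial genes tested was called, and no T or NK cell gene was abundant enough to be tested.

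Red cell transcripts were found in some members. In all, 8 of the 62 members (12.9%) held 100 or more haemoglobin UMIs, against 392 of 22545 reference droplets (1.74%) and 18 of 606 (2.97%) of the depth-matched ones. They were 1 of 12, 1 of 18 and 1 of 6 members in WT mice and 3 of 12, 0 of 6 and 2 of 8 in AppArcSwe mice. Their share was above the reference in 5 of 6 mice, at 13.4% ± 10.5 against 1.75% ± 0.523 (SD, n = 6 mice; exact two-sided sign-flip test, p = 0.0625; the smallest p this test allows is 0.03125). The distribution had a gap: the 8 droplets held 103 to 6330 haemoglobin UMIs, up to 44.8% of a droplet's UMIs, and the others held 0 to 5. *Pf4* was found in 7 of the 8. The 8 had a median of 11282 UMIs against 5443 in the other members, and of 7125 UMIs once haemoglobin was taken off.

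**Figure D4:**
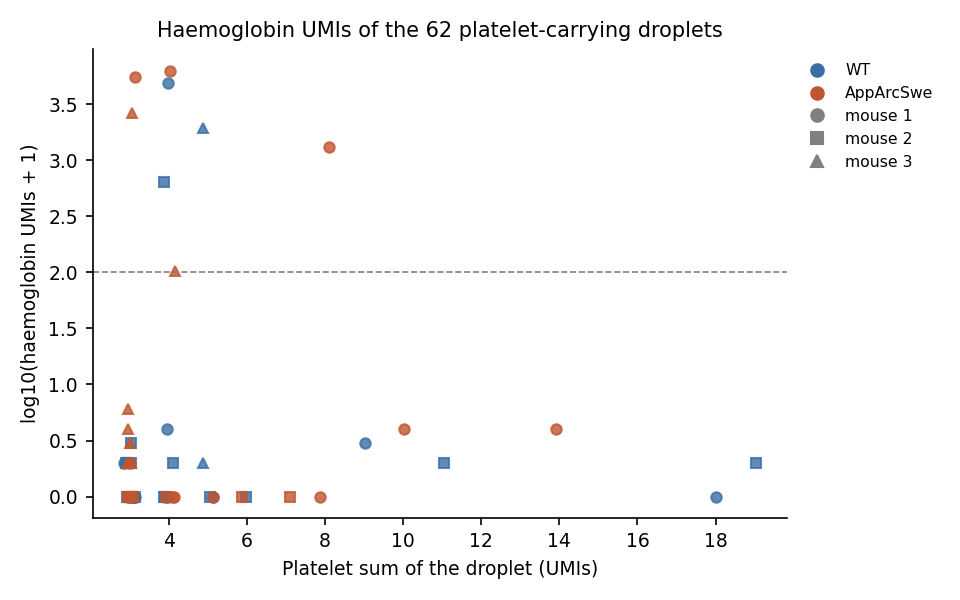
Haemoglobin UMIs, as log10(UMIs + 1), of each of the 62 platelet-carrying droplets (y axis) by platelet sum (x axis, with a small sideways shift so that points can be told apart), by genotype (colour) and mouse (shape); the dashed line marks 100 UMIs. Of the droplets, 8 lay above the line and the others at or below 5 UMIs.

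The haemoglobin genes of the summed comparison rested on these few droplets. *Hbb-bs* (log2 fold change 1.83 ± 0.16), *Hba-a1* (2.13 ± 0.17), *Hba-a2*, *Hbb-bt* and *Alas2*, the first enzyme of haem synthesis in red cells, were called higher, in 4 of 6 mice each. Without droplets of 100 or more haemoglobin UMIs in either class the fold changes of *Hbb-bs*, *Hba-a2* and *Hbb-bt* were below 0, at -1.04, -1.09 and -2.22, and that of *Hba-a1* was 0.42. These genes are pairs of near-identical copies, and how reads were split between copies is uncertain. *Slc4a1*, which encodes an anion exchanger of the red cell membrane, was at 0 in all members.

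The lists of general endothelial function held no called gene. None of 12 pan-endothelial, 13 barrier and 11 haemostasis genes tested was called in either direction, with median log2 fold changes of -0.19, -0.26 and -0.20 beside -0.21 over all genes. *Vwf*, which endothelium and platelets share, had a log2 fold change of -0.62 ± 0.18 and *Thbd*, the thrombin receptor thrombomodulin, 0.10. None of 12 immediate early and 12 interferon response genes was called either. Of 9 MHC class I genes *H2-Q7* alone was called lower (-1.07). *Edn1*, which encodes the vasoconstrictor endothelin-1 and was picked after its values were seen, was lower in members of 6 of 6 mice, at 178, 106 and 77.1 CPM in WT and 110, 55.9 and 87.1 CPM in AppArcSwe mice against 190 to 279 CPM in the reference (log2 fold change -1.32 ± 0.21, edgeR adjusted p = 1.5e-07). *Icam1* (-0.81 ± 0.19, edgeR adjusted p = 0.0030) and *Vcam1* (-1.29 ± 0.22, edgeR adjusted p = 2.7e-06), adhesion molecules of activated and venous endothelium, were lower in 5 of 6 mice. Of 45 *Vcam1* UMIs in members 23 came from 1 droplet. These were the 2 called among 11 activation genes tested, beside 0.444% lower over all genes. *Edn1* was called under 17 of 17 alternatives, *Vcam1* under 14 and *Icam1* under 9.

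Among genes of the vessel zones, calls were most frequent in the arterial list. Of 12 arterial genes 6 were called lower and none higher (median log2 fold change -1.20), whereas 54 of 12149 genes (0.444%) were lower over all genes. *Mgp*, a calcification inhibitor of large arteries, stood at 83.0, 163 and 19.3 CPM in members of WT mice and at 0, 0 and 21.8 CPM in AppArcSwe mice, against 292 to 793 CPM (log2 fold change -3.20 ± 0.21, edgeR adjusted p = 7.6e-49). It was found in 6 members (9.68%) and in 19.4% of the reference, and 18 of its 29 UMIs lay in 1 droplet. The fold change and p-value describe UMI sums and not these shares. Arterial genes can lie in the same few droplets, so the 6 calls are not 6 independent results. *Bmx*, a kinase of arterial endothelium, was lower in 6 of 6 mice (11 UMIs in 8 members, -2.05 ± 0.38, edgeR adjusted p = 1.6e-05), as was *Eln*, which encodes elastin (-1.55 ± 0.33, edgeR adjusted p = 0.00049). *Gkn3* (-2.10 ± 0.22), *Fbln5* (-2.53 ± 0.51) and *Vegfc* (-0.85 ± 0.23) were also called, with members above the reference in AppArcSwe mouse 3 for *Gkn3*. *Mgp* was called under 17 of 17 alternatives, *Gkn3* under 16, *Bmx* under 15, *Fbln5* under 14, *Eln* under 12 and *Vegfc* under 7. Of all 54 genes called lower, 4 were called with DESeq2. *Efnb2* and *Sema3g* had fold changes of 0.17 and 0.04 and did not pass. The summed arterial list was lower in members of all 6 mice, with 806, 1052 and 366 CPM in WT and 290, 298 and 1676 CPM in AppArcSwe mice against 1259 to 2204 CPM.

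None of 8 capillary genes was called (median log2 fold change -0.14), among them *Mfsd2a*, the lipid transporter of the barrier (-0.18), and *Car4*, a carbonic anhydrase of capillaries (0.25). All 10 venous genes had fold changes below 0 (median -0.52). So did 8356 of the 12149 genes tested, all 13 barrier genes and all 12 interferon response genes. *Icam1* and *Vcam1* were the 2 venous genes that passed. Over all genes 0.444% were called lower. *Slc38a5*, an amino acid transporter of venous endothelium, had a fold change of -0.03 and *Nr2f2*, the venous transcription factor, -0.53.

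Each droplet was also given the zone whose summed UMIs stood highest relative to the mean endothelial droplet of its mouse. In all, 9 of the 62 members were arterial, 40 capillary and 13 venous. Arterial members numbered 2 of 12, 5 of 18 and 0 of 6 in WT and 0 of 12, 0 of 6 and 2 of 8 in AppArcSwe mice, and 3 mice thus had none. The arterial share was 11.6% ± 13.2 in members and 20.02% ± 1.68 in the reference (SD, n = 6 mice), lower in 4 of 6 mice, and did not differ beyond the spread (exact two-sided sign-flip test, p = 0.219, adjusted over 3 zones 0.328). The capillary share was 67.6% ± 10.3 against 59.4% ± 1.43 (n = 6, exact p = 0.125, adjusted 0.328) and the venous share 20.8% ± 12.6 against 20.5% ± 1.51 (n = 6, exact p = 0.969). Against the depth-matched reference, which held 29.0% arterial and 48.1% capillary droplets, the arterial difference was -17.4 percentage points (exact p = 0.0625, adjusted 0.0938) and the capillary one 19.5 points, in 6 of 6 mice (exact p = 0.03125, the smallest possible; adjusted 0.0938). Against the whole reference the capillary difference was 8.15 points and moved both ways under other settings. It was 3.63 points without haemoglobin-rich droplets and 4.17 at a platelet sum of 2 or more, higher in 3 of 6 mice in both. It was 4.80 points without AppArcSwe mouse 2 and 10.2 without WT mouse 2. The arterial difference was -4.85 points at a sum of 2 or more, -15.1 at 5 or more (in 5 mice) and -10.9 after thinning to 2000 UMIs. Counted the other way, 0.196% of arterial, 0.288% of capillary and 0.270% of venous endothelial droplets were platelet-carrying.

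**Figure D5:**
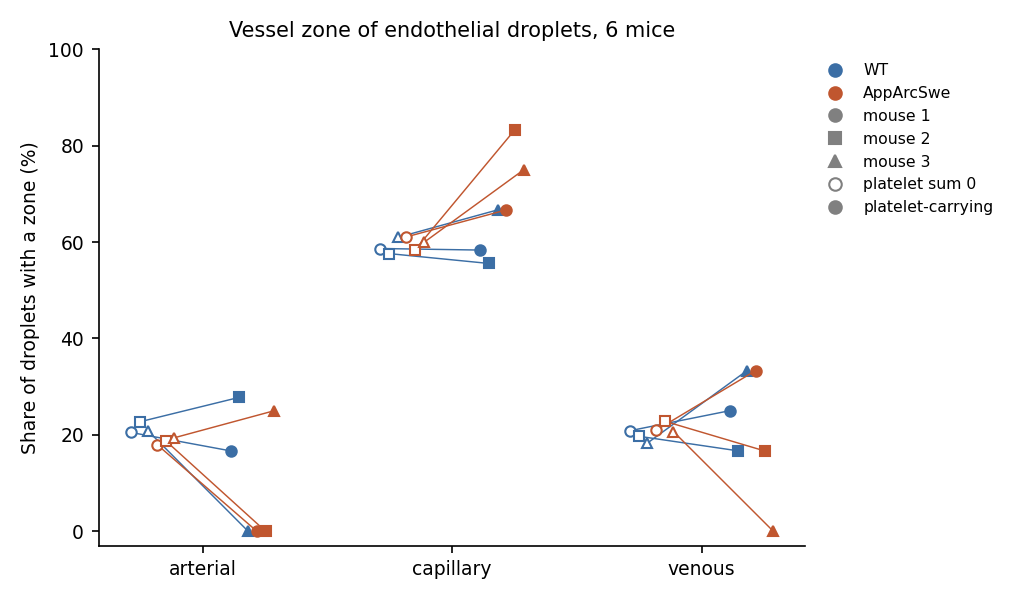
Share of droplets in each vessel zone (y axis, %) per mouse, in the reference (open symbols) and in platelet-carrying droplets (filled symbols), joined within each mouse, by genotype (colour) and mouse (shape). The reference lay at 17.98% to 22.7% arterial in every mouse, while 3 mice had no arterial member.

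Of 8 mural genes tested 3 were called lower, *Rgs5*, *Vtn* and *Acta2*, and none higher, beside 0.444% lower over all genes. *Rgs5*, a pericyte gene, had 4 UMIs in 3 members (log2 fold change -3.18 ± 0.51, edgeR adjusted p = 2.4e-07). The shares of droplets with *Rgs5* were close, at 4.84% of members and 6.20% of the reference. The call thus describes summed UMIs and not the share of droplets. *Vtn*, which pericytes secrete, had 0 UMIs in members and was in 2.88% of reference droplets. With so small a share in the reference, finding none in so few members sets no lower bound on the fold. *Vtn* was called under 14 of 17 alternatives, *Rgs5* under 13 and *Acta2* under 8. The mural list summed to 16.3 to 55.9 CPM in members of 5 mice, where the reference gave 257 to 594 CPM, and to 2220 CPM in AppArcSwe mouse 3, where it gave 884 CPM. There 43 of 46 *Acta2* UMIs of all members came from 1 droplet. Among 37 genes called lower in all 6 mice were also *Cytl1*, *Wdpcp*, *Cd63* and *Ercc6*, with 0 UMIs in members. The 37 also held *Ccn2*, *Ankrd50* and *Efna5*, with 1 UMI each. The genes at 0 were each in a small share of reference droplets, so their absence from so few members gives no firm lower bound. Fitted fold changes of genes at 0 are no measure of size, so these genes are not ranked. *Cytl1* was called under 14 of 17 alternatives, *Wdpcp* under 11 of 16, *Ccn2* under 10 of 16, *Efna5* under 5 of 17, *Ankrd50* under 4 of 16, *Ercc6* under 1 of 16 and *Cd63* under none of 17.

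The genotypes were compared within the platelet-carrying droplets. No gene was called between 3 WT and 3 AppArcSwe mice among 1234 tested with edgeR (0%), 56 had an unadjusted p under 0.05 and the smallest adjusted p was 0.995. DESeq2 also called 0, with 29 at an unadjusted p under 0.05. The groups did not overlap for 9.89% of the genes tested. The members of WT mice held 2.07 ± 1.25 *Pf4* UMIs per droplet and those of AppArcSwe mice 2.36 ± 1.13 (SD, n = 3 each; exact permutation test, p = 0.8). The platelet sum per droplet, which the rule held at 3 or more, was 4.58 ± 0.821 and 4.40 ± 1.31 (n = 3 each) and is given as a description. *Treml1* stood at 11.9, 16.3 and 19.3 CPM in WT and at 30.0, 37.3 and 109 CPM in AppArcSwe mice, from 14 UMIs, and was too low to be tested.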

How the data were processed

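Microvascular cells of 3 WT and 3 AppArcSwe mice were sequenced, each mouse as its own library. Raw UMI counts per gene and barcode were deposited by the authors. They were made with Cell Ranger 7.0.0 (submitters' processing notes) against mm10 supplemented with Clec7a and human NOTCH3, without normalization. Intervals and limits on counts cover counting error only.

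Members, gene lists and tests were chosen with earlier results of these data known. Ribosomal, mitochondrial, pseudogene and Rik genes, 2920 of 32287 features, were left out of tests. Sums of UMIs for each class in each mouse passed filterByExpr and TMM scaling in edgeR 4.0.16 (R 4.3.3) and its quasi-likelihood test (glmQLFit, glmQLFTest). The mouse was a block in the class test, and genotype was the only term in the other. Calls needed p under 0.05 after Benjamini-Hochberg adjustment. DESeq2 1.42.0 was an alternative. On simulated data the class test found 36, 108 and 144 of 200 genes changed by a log2 of 1, 2 and 3. Beside these it made 3, 16 and 17 false calls, with 12149 genes run. The genotype test found 66, 153 and 168, with 7, 14 and 3 false calls over 1234. Simulated counts were drawn per sum, without clustering of UMIs in few droplets, so false calls of that kind are not covered. Shares were compared with exact permutation tests, and shares within mice with exact sign-flip tests (Python 3.11.15, scipy 1.17.1). A zone needed at least 3 UMIs of zone genes. Named genes were those of the rule, the 6 markers, list members called or up to 6 per list, and by class the 10 called genes of largest change in each direction with the same direction in 6 mice (9 genes higher). Alternatives changed the platelet sum to 2 or 5, the filter to 1000 genes and 5% mitochondrial UMIs, the endothelial sum to 12, depth, reference, scaling, low-count filter, block and tool, or left out each mouse.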

Additional observations from a re-analysis of the deposited data

Results flagged for a closer look

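In 6 summed gene lists 1 mouse lay far from the other 5 among the platelet-carrying droplets, of 32 values checked; chance flags about 1 in 20. The fenestrated endothelium list was highest in WT mouse 2, at 1778 CPM, where 3 of 18 droplets held its UMIs; in all members *Igfbp3* had 124 UMIs, 94 of them in 1 droplet. The other 5 were highest in AppArcSwe mouse 3, which had the fewest member UMIs, 45949. The mural list stood at 2220 CPM there, from 102 UMIs in 2 of 8 droplets. The microglia list stood at 740 CPM, from 34 UMIs in 8 droplets, and the reference of that mouse was at 891 CPM. The interferon response list stood at 3547 CPM, with 2849 CPM in the reference of that mouse. The neutrophil list at 43.5 CPM rested on 2 UMIs and the fibroblast list at 21.8 CPM on 1 UMI.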

How the results depend on the processing

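The share difference between genotypes stayed below 0 under each change of threshold, filter, denominator and depth, and ran from -0.148 to 0.0185 percentage points with 1 mouse left out, the last without WT mouse 2. With the replicate number as a block it was -0.0687 (exact p = 0.25), and the genotype test of genes called 0 of 1550. Main calls by class were 111. They numbered 44 against the depth-matched reference (27 higher, 17 lower), 171 after thinning to 2000 UMIs (27 higher, 144 lower), 55 with DESeq2 (51 higher, 4 lower), 20 without the replicate block, which the mouse supplied, and 76 to 107 with 1 mouse left out; the cause was not tested. Of 54 genes called lower, 4 stayed called with DESeq2 and 22 with RLE factors, against 37 and 53 of the 53 called higher outside the rule. Of 48 named genes 11 were called under every alternative that tested them, and 4 reversed, all haemoglobin genes: at a platelet sum of 5 or more *Hba-a1* was at -1.05, *Hba-a2* -0.70, *Hbb-bs* -2.48 and *Hbb-bt* -1.81, and without haemoglobin-rich droplets *Hba-a2* was at -1.09, *Hbb-bs* -1.04 and *Hbb-bt* -2.22. Without a low-count filter 16 genes were called by genotype. The venous share difference was 0.29 points in the main setting, -2.14 against the depth-matched reference and -2.66 to 4.49 with 1 mouse left out. It was 9.15 points at a sum of 5 or more (in 5 mice) and 5.78 after thinning. A sum of 5 or more left AppArcSwe mouse 3 without members. Each member sum rested on 6 to 18 droplets. Replicate numbers were shared by the genotypes, but no label ties them to a litter or batch. Deviations of same-numbered mice from their group means over 1234 genes correlated at 0.26, 0.20 and -0.02, and mice 1 and 2 but not 3 correlated best with their own number, so the numbers were not taken to pair the mice.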

Other observations

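Outside every list, 28 genes were called higher in platelet-carrying droplets, where 53 of 12141 genes outside the rule (0.437%) were higher. The members were selected on platelet genes in this contrast, and a gene nearly absent from the reference could pass the filter on low counts through the members alone, so the values below are descriptions and support nothing. The genes named were chosen after their values were seen, and some encode proteins known from platelets. *Mpig6b*, an inhibitory receptor of megakaryocytes and platelets, had 7 UMIs in 6 members and was in 0.0444% of the reference. *Cd226*, an adhesion receptor of lymphocytes and platelets, had 10 UMIs in 6 members, *Rgs18*, a regulator of G protein signalling in platelets, 8 UMIs in 5 members, *Slc2a3*, a glucose transporter, 9 UMIs in 6 members, and *Slc6a4*, the serotonin transporter, 6 UMIs in 5 members. Each of these was found in members of 2 to 5 mice. *Rgs10*, of the same family as *Rgs18*, was in 16 members and 7.26% of the reference, and *Fcer1g*, the shared signalling chain of immune receptors and the collagen receptor of platelets, in 18 members and 6.81%.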
